A study of Arabidopsis thaliana with 10 samples.

Results

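A set of 97 Arabidopsis thaliana genes stood higher at each successive segment down the young inflorescence stem. They were chosen by measured values, out of 18858 measured genes and 23615 listed ones: each gained at least 1 on the scale of log2(FPKM + 1), which is 2-fold, from stem segment I to segment II of the wild type and at least 1 again from segment II to segment III. FPKM counts fragments per kilobase of a transcript and per fragments mapped, so levels of different genes are compared per length. A gene counted as measured when it reached 1 FPKM in at least 1 of the 4 RNA libraries. Gains of that size at both steps place a gene above 1 FPKM in segment III, so all 97 genes passed the filter in the wild-type libraries by construction. Their lowest level in segment III was 4.02 FPKM.

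Stems of 20 cm, from plants kept in long days, were divided from the top. Segment I ran from 0 to 3 cm below the tip, segment II from 5 to 7 cm, and segment III from 10 to 12 cm. RNA was sequenced from all 3 segments of the wild type (accession Col, here WT I, WT II and WT III) and from the same segment II in plants of genotype atx1, giving 1 library per condition. The ATX1 protein methylates lysine 4 of histone H3. The other 6 of the 10 samples, chromatin and input libraries, were not analysed here, nor was segment IV, which the design also names. The sources used here do not give the mutant allele, the number of plants in a library or the hour of harvest.

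With 1 library per condition there is no replicate, no test and no error on any difference below, and every value describes these libraries only. A whole stem segment holds many cell types, and a lower level from fewer cells of a type cannot be told apart from less RNA per cell. The targeted gene itself was not low in the mutant library. ATX1 was at 4.02, 6.09 and 3.54 FPKM in WT I, WT II and WT III and at 21.8 FPKM in the library labelled atx1 II. That is 1.68 higher than WT II on the log2 scale, against the label, so the library is called "the library labelled atx1 II" throughout. The sources used here do not say which part of the gene the mutation affects.

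Glucosinolates are sulphur-rich defence compounds of the cabbage family. The aliphatic ones are built from methionine, whose side chain is first lengthened in repeated rounds, after which cytochrome P450 enzymes and conjugating enzymes assemble the core and oxygenases modify the side chain. R2R3-MYB transcription factors switch the pathway on, and the compounds are stored until tissue damage brings them together with myrosinase, which releases toxic breakdown products.

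Aliphatic glucosinolate synthesis was the best represented pathway among the 97 genes, with 13 of them: 6 for chain elongation, 4 for the core structure, 2 for side chain oxidation and 1 regulator. Another 3 genes supply the precursors or electrons that this pathway draws on, and 1 more is grouped under indole glucosinolates. GGP1, counted here among the 4 for the core structure, is on the list for indole glucosinolates as well. The remaining genes comprised 12 for transport or metal binding, 9 for defence, membrane or receptor proteins, 7 detoxification and redox enzymes, 4 transcription factors outside glucosinolates, 4 genes named by family or phenotype only, and 2 each for phenylpropanoids, cold and drought protection, wall and signal peptides and chloroplast-encoded proteins. A further 36 had no function name in the tables used here and are given by locus, with no role. These groups were formed by hand from the gene names.

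The 97 genes had median levels of 1.55, 9.29 and 30.1 FPKM in WT I, WT II and WT III and of 39.6 FPKM in the library labelled atx1 II. In WT I, 43 of them were below 1 FPKM and 9 were listed at 0, and none reached 100 FPKM. At least 100 FPKM was reached by 9 genes in WT II, by 19 in WT III, and by 33 in the library labelled atx1 II. Many of the genes were thus close to 0 at the top of the stem.

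The gain from WT I to WT II had a median of 1.78 on the log2 scale, with quartiles of 1.31 and 2.3, and reached 5.4. From WT II to WT III the median gain was 1.38, with quartiles of 1.13 and 1.71, and the highest was 3.45. The first gain was the larger one in 70 of the 97 genes. These gains chose the genes and are given as a description. Among all measured genes, 9.88% gained 2-fold or more at the first step and 2.85% at the second, and nothing is read from that contrast. In all, 1643 genes gained 2-fold at the first step while staying within 2-fold at the second, and 255 did the reverse.

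The counts for the library labelled atx1 II are read against all measured genes. Of these, 14.1% were 2-fold or more above WT II there and 8.32% below, and 81.4% were within 2-fold of WT III, with 9.61% above it and 9.03% below. All comparisons use the same 4 libraries, and WT I, WT II and WT III all served to choose the genes.

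Genes lay close to the threshold on both sides. AT3G03776 (1.0), CCR4 (1.005) and DUR3 (1.017) were the nearest inside on the first step, and SDR3 (1.001), PCR1 (1.011) and AT2G32870 (1.025) on the second, all as log2 differences. Just outside on the first step lay NIP5;1 at 0.99, bZIP58 at 0.969 and ATOBGM at 0.969. Just outside on the second step lay AT1G24140 at 0.99, CLC-B at 0.986 and AT4G38560 at 0.976.

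**Figure D1:**
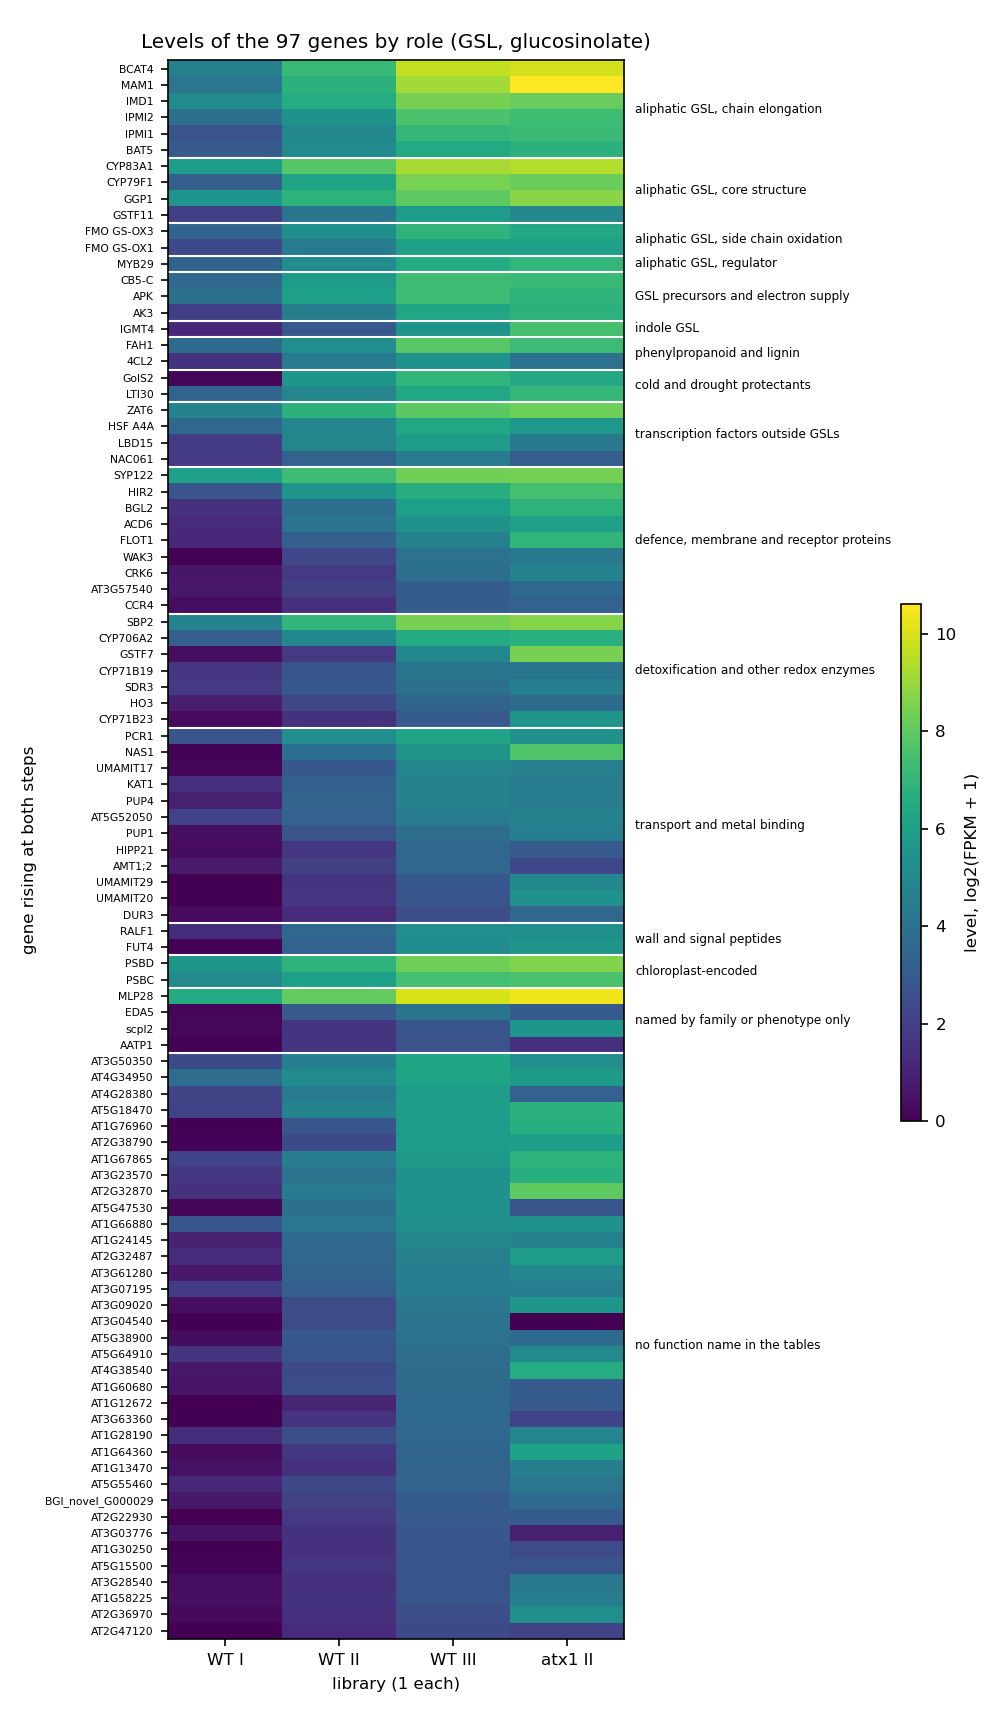
Level of each of the 97 genes as log2(FPKM + 1), by colour, in WT I, WT II, WT III and the library labelled atx1 II (columns, 1 library each), with genes in rows grouped by role and ordered by their level in WT III. Colours brighten from WT I to WT III by construction, and in most rows the fourth column is as bright as the third, with exceptions such as AT3G04540 (0 FPKM) and AT5G47530 (6.07 FPKM).

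The chain elongation genes included the 2 highest aliphatic genes of the library labelled atx1 II. BCAT4 encodes the aminotransferase that turns methionine into its 2-oxo acid, the entry step of elongation. BCAT4 stood at 24.3, 147 and 796 FPKM in WT I, WT II and WT III and at 948 FPKM in the library labelled atx1 II. MAM1, the methylthioalkylmalate synthase that condenses the 2-oxo acid with acetyl-CoA, was at 17.0, 114 and 562 FPKM along the stem and at 1571 FPKM in the library labelled atx1 II. Both gained more than 2 on the log2 scale at each wild-type step, and MAM1 had the highest FPKM of all 97 genes in the library labelled atx1 II, 13.8-fold its level in WT II and 2.79-fold that in WT III. Reads of MAM1 could be shared with its paralog MAM3, which was listed at 0, 0, 0.06 and 1.13 FPKM.

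IPMI1 and IPMI2, subunits of the isomerase, came next in the cycle. IPMI1 was at 5.59, 30.1 and 132 FPKM in WT I, WT II and WT III and at 149 FPKM in the library labelled atx1 II. IPMI2 was at 14.1, 43.05 and 193 FPKM and at 160.0 FPKM. In the library labelled atx1 II, IPMI1 was thus a little above WT III and IPMI2 a little below. IMD1, the dehydrogenase that completes a round, measured 32.1, 95.6 and 345 FPKM in the wild type and 286 FPKM in the library labelled atx1 II. BAT5, which carries the 2-oxo acids across the chloroplast envelope, measured 7.29, 33.05 and 89.5 FPKM and then 112 FPKM. In all 6 elongation genes the library labelled atx1 II lay 2-fold or more above WT II, by a median of 2.07 on the log2 scale, and 5 of the 6 were within 2-fold of WT III.

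The core enzymes included the cytochromes P450 that open the pathway proper. CYP79F1, which converts elongated methionine to an aldoxime, was at 8.27, 72.7 and 355 FPKM in WT I, WT II and WT III and at 295 FPKM in the library labelled atx1 II. CYP83A1, which oxidises the aldoxime, was at 58.8, 222 and 606 FPKM and at 663 FPKM. CYP79F1 had the larger gain over both wild-type steps, 5.26 on the log2 scale against 3.34. Its near-identical neighbour CYP79F2 was at 0, 0.67, 5.0 and 5.12 FPKM, and the sources used here do not state how reads shared by the pair were divided. GGP1, the peptidase that trims the glutathione conjugate, measured 47.3, 117 and 251 FPKM in the wild type and 430 FPKM in the library labelled atx1 II. GSTF11, a phi class glutathione S-transferase placed at the conjugation step, measured 2.99, 16.6 and 55.9 FPKM and then 29.0 FPKM. GSTF11 was the only one of the 13 aliphatic genes that lay within 2-fold of WT II in the library labelled atx1 II, at a difference of 0.77.

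Side chain oxidation was represented by a pair of flavin monooxygenases that oxygenate the sulphur of the side chain. FMO GS-OX1 was at 4.08, 20.3 and 65.1 FPKM in WT I, WT II and WT III and at 63.0 FPKM in the library labelled atx1 II. FMO GS-OX3 was at 9.72, 38.1 and 119 FPKM and at 83.2 FPKM. MYB29, a transcription factor of the aliphatic pathway, was at 9.74, 33.3 and 87.9 FPKM in the wild type and at 129 FPKM in the library labelled atx1 II. MYB29 thus had its highest level in the library labelled atx1 II, and the monooxygenases had theirs in WT III.

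**Figure D2:**
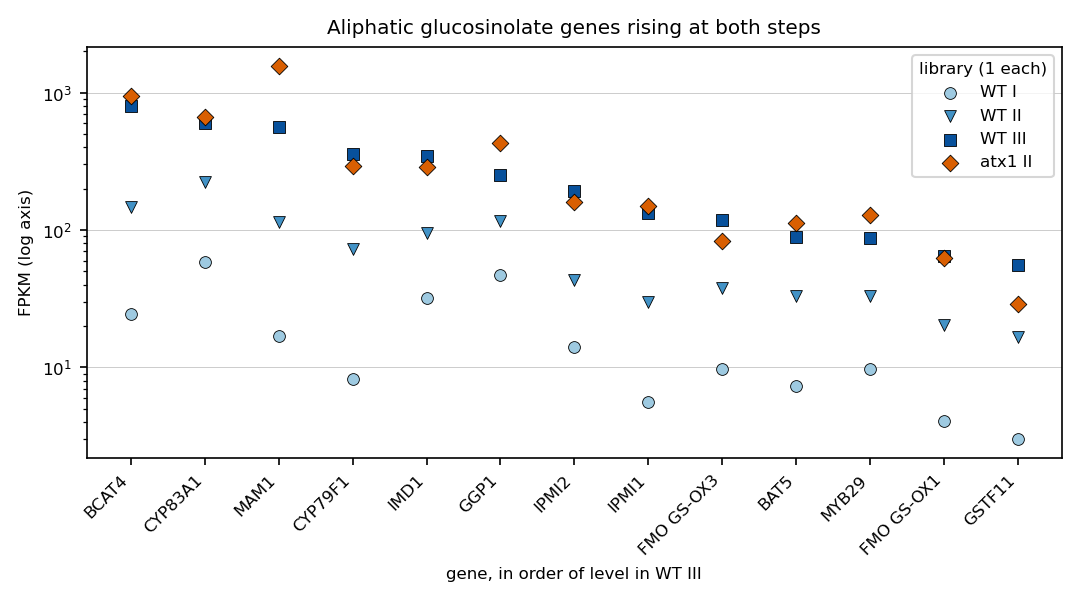
FPKM on a log axis of the 13 aliphatic glucosinolate genes in WT I, WT II, WT III and the library labelled atx1 II (1 point per library), ordered by level in WT III. WT I is lowest and WT II second lowest for every gene, while the library labelled atx1 II lies near WT III, from 28.96 FPKM for GSTF11 to 1570.77 FPKM for MAM1.

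Of the 13 aliphatic genes, 12 were 2-fold or more higher in the library labelled atx1 II than in WT II, none was 2-fold lower, and the median difference was 1.87. Against WT III, 12 were within 2-fold and MAM1 was higher, with a median difference of 0.13. After libraries were scaled by the median of ratios, 11 rather than 12 exceeded WT II by 2-fold, because FMO GS-OX3 no longer did, and none of the 13 differences changed sign.

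The rest of the pathway was read from a list drawn up after the 97 genes were known, so it describes the pathway and is no independent support. It named 32 genes, of which 30 were matched and 29 measured, the 13 above included. At the first step 18 of the 29 were 2-fold higher and 2 lower (median 1.29), and at the second 17 were higher and none was lower (median 1.3). The library labelled atx1 II was 2-fold above WT II in 18 and below it in 1 (median 1.58). Over all measured genes the median differences were -0.13, 0.19 and 0.28 in the same order.

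Several pathway genes missed the threshold at either step or at both. GSTU20, a tau class glutathione S-transferase, was at 198, 381 and 910 FPKM in WT I, WT II and WT III, and at 747 FPKM in the library labelled atx1 II. IIL1, the large subunit of the isomerase, was at 74.5, 90.5 and 228 FPKM and at 406 FPKM. SUR1, the lyase shared by aliphatic and indole glucosinolates, was at 35.7, 83.9 and 111 FPKM and at 286 FPKM. GSTU20 and IIL1 missed the first threshold and SUR1 the second. MYB28, the other main regulator, was at 25.2, 60.8 and 102 FPKM in the wild type and at 229 FPKM in the library labelled atx1 II, and also missed the second. FMO GS-OX4, with 6.52, 13.1, 22.2 and 3.45 FPKM, was the gene of the list that was 2-fold lower in the library labelled atx1 II than in WT II. Other genes of the list outside the set lay within 2-fold of WT II there. They were GSTU20 (0.97), BCAT3 (0.7), IMD3 (0.58), SOT18 (0.56), AOP1 (0.29), UGT74B1 (0.14), FMO GS-OX5 (0.1), SOT17 (-0.15) and FMO GS-OX2 (-0.69), as log2 differences.

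Genes that feed the pathway were in the set as well. AK3, an aspartate kinase at the head of the amino acid branch that leads to methionine, was at 2.89, 20.85 and 78.0 FPKM in WT I, WT II and WT III and at 112 FPKM in the library labelled atx1 II. APK, the kinase that makes the activated sulphate used by sulphotransferases, was at 14.01, 62.5 and 152 FPKM and at 118 FPKM. CB5-C, a cytochrome b5 that can pass electrons to cytochromes P450, was at 11.6, 56.0 and 154 FPKM and at 146 FPKM. AK3 and CB5-C were 2-fold above WT II in the library labelled atx1 II, and APK was 0.91 above it on the log2 scale. Of the sulphotransferases themselves, SOT17 missed the second threshold, with gains of 2.91 and 0.47. SOT18 missed both, with gains of 0.92 and 0.81. In the library labelled atx1 II, SOT17 and SOT18 differed from WT II by -0.15 and 0.56.

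Indole glucosinolates are made from tryptophan. IGMT4, a methyltransferase that modifies the indole ring, was at 1.25, 6.78 and 43.0 FPKM in WT I, WT II and WT III and at 186 FPKM in the library labelled atx1 II, 4.59 above WT II on the log2 scale. Its close paralogs IGMT1, IGMT2 and IGMT3 were between 9.49 and 17.0 FPKM in the library labelled atx1 II and below 4 FPKM in every wild-type library, and the split of reads between the copies is uncertain. Of 17 measured genes on the indole list, which includes GGP1, 9 were 2-fold higher and none lower at the first step (median 1.21), while 4 were higher and none lower at the second (median 0.23). In the library labelled atx1 II, 9 were 2-fold above WT II and none below it (median 1.17). CYP79B3, a P450 that opens the indole branch, was at 1.69, 106, 62.7 and 175 FPKM. CYP79B2, of the same list, was at 1.73, 76.0, 53.6 and 47.7 FPKM. Their highest wild-type levels were thus in WT II, not in WT III. In the library labelled atx1 II, CYP79B3 differed from WT II by 0.72 on the log2 scale and CYP79B2 by -0.66.

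Phenylpropanoid synthesis, which supplies lignin, contributed a pair of genes, of which only 1 differed from WT II by 2-fold in the library labelled atx1 II. FAH1, ferulate 5-hydroxylase, was at 12.7, 35.5 and 230.5 FPKM in WT I, WT II and WT III and at 155 FPKM in the library labelled atx1 II. 4CL2, 4-coumarate CoA ligase 2, was at 1.97, 20.5 and 43.1 FPKM in the wild type and at 14.5 FPKM in the library labelled atx1 II. FAH1 thus lay 2.09 above WT II on the log2 scale, and 4CL2 lay at -0.47, within 2-fold of WT II. Both belong to the list for lignin monomer synthesis, where 15 of 17 measured genes were 2-fold higher at the first step and these were the only 2 that were so at the second. In the library labelled atx1 II, 2 of the 17 were 2-fold above WT II and 9 below it, with a median of -1.3.

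The defence, membrane and receptor group held 9 genes. SYP122, a plasma membrane syntaxin of secretion, was at 65.8, 154 and 327 FPKM in WT I, WT II and WT III and at 335 FPKM in the library labelled atx1 II. HIR2, named for the hypersensitive induced reaction, was at 5.93, 44.3 and 96.9 FPKM and at 180.0 FPKM. Both were highest in the library labelled atx1 II, by a narrow margin for SYP122. BGL2, a beta-1,3-glucanase also known as PR2 and a marker of salicylate responses, was at 1.82, 13.2 and 62.2 FPKM and at 115 FPKM. ACD6, an ankyrin-repeat membrane protein of the salicylate defence pathway, was at 1.5, 15.6 and 41.9 FPKM in the wild type and at 62.4 FPKM in the library labelled atx1 II. FLOT1, a flotillin of membrane microdomains, had the widest gap to the wild type in the group, with 1.25, 8.58 and 24.1 FPKM along the stem against 123 FPKM. It was the 1 gene of the group 2-fold above WT III. Receptor kinases WAK3, CRK6 and CCR4 and the remorin REM4.1 were lower, between 7.72 and 15.2 FPKM in WT III and between 9.11 and 25.5 FPKM in the library labelled atx1 II.

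All 9 of these genes were 2-fold or more above WT II in the library labelled atx1 II, by a median of 2.0, although SYP122 was not after median-of-ratios scaling. All 9 also had their highest level there as deposited, with a median 0.56 above WT III on the log2 scale. The salicylate list as a whole looked different from BGL2, its member in the set: of 16 measured genes, 6 were 2-fold above and 4 below WT II in the library labelled atx1 II, and the median was 0.21.

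Among detoxification and redox enzymes, SBP2, a selenium-binding protein, was at 26.2, 128 and 343 FPKM in WT I, WT II and WT III and at 408 FPKM in the library labelled atx1 II. The cytochrome P450 CYP706A2 was at 8.47, 30.01 and 90.3 FPKM and at 107 FPKM. GSTF7, a phi class glutathione S-transferase, was at 0.32, 2.37 and 30.1 FPKM in the wild type and at 347 FPKM in the library labelled atx1 II. GSTF7 had the largest difference between the library labelled atx1 II and WT II of the 97 genes, 6.69 on the log2 scale. Its near-identical neighbour GSTF6 was at 2.42, 2.06, 39.5 and 582 FPKM, so the values of the pair are uncertain one by one, while both were far higher in the library labelled atx1 II.

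CYP71B23, another P450 of the group, was at 0.24, 1.94 and 7.35 FPKM in WT I, WT II and WT III and at 44.2 FPKM in the library labelled atx1 II. CYP71B19, the short-chain dehydrogenase SDR3 and the haem oxygenase HO3 were between 9.77 and 16.7 FPKM in WT III and between 12.5 and 22.7 FPKM in the library labelled atx1 II. All 7 genes of the group were 2-fold above WT II in that library. On the phi class list, with 9 measured genes including GSTF7 and GSTF11, 4 were 2-fold above WT II and 1 below it.

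Transport and metal binding genes were mostly low at the top of the stem. NAS1, which makes the metal chelator nicotianamine, was at 0.08, 13.9 and 44.2 FPKM in WT I, WT II and WT III and at 206 FPKM in the library labelled atx1 II. PCR1, a small protein named for plant cadmium resistance, was at 5.59, 36.0 and 73.5 FPKM and at 39.3 FPKM. NAS1 was highest in the library labelled atx1 II and PCR1 in WT III. UMAMIT17, of an amino acid exporter family, was at 0.11, 6.55 and 27.9 FPKM and at 23.53 FPKM. KAT1, an inward potassium channel best known from guard cells, was at 1.68, 8.88 and 25.2 FPKM in the wild type and at 21.5 FPKM in the library labelled atx1 II. These genes did not share one pattern in that library, since NAS1 was far above WT III while PCR1 lay close to WT II, at a difference of 0.12.

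UMAMIT20, the gene next to UMAMIT17, was listed at 0 in WT I and was at 2.24, 6.16 and 40.4 FPKM in WT II, WT III and the library labelled atx1 II. UMAMIT29 was likewise listed at 0, then at 2.03, 6.5 and 30.4 FPKM. Purine permeases PUP1 and PUP4, the urea transporter DUR3, the efflux carrier DTX50 and the metal-binding HIPP21 completed the group with the ammonium transporter AMT1;2, which was at 0.71, 2.99 and 10.2 FPKM in the wild type and at 3.88 FPKM in the library labelled atx1 II. In total 10 of the 12 were 2-fold above WT II there and none was 2-fold below, and 8 of the 12 were so after median-of-ratios scaling, which removed KAT1 and PUP4. PCR1 and AMT1;2 were within 2-fold of WT II.

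Of the 4 transcription factors outside glucosinolates, 3 lay within 2-fold of WT II in the library labelled atx1 II. ZAT6, a C2H2 zinc finger factor of stress responses, was at 26.1, 113 and 244 FPKM in WT I, WT II and WT III and at 308 FPKM in the library labelled atx1 II. HSF A4A, a heat shock factor, was at 11.01, 28.7 and 82.6 FPKM and at 50.2 FPKM. The former was highest in the library labelled atx1 II and the latter in WT III. LBD15, of the LOB domain family, was at 2.59, 27.2 and 57.1 FPKM and at 18.4 FPKM. NAC061 was at 2.41, 9.29 and 20.9 FPKM in the wild type and at 8.24 FPKM in the library labelled atx1 II. ZAT6 was thus the only factor 2-fold above WT II, and the differences of HSF A4A, LBD15 and NAC061 were 0.79, -0.54 and -0.16.

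GolS2, the galactinol synthase of raffinose sugar production, had the largest gain over both wild-type steps of all 97 genes, 6.79 on the log2 scale. It was at 0.15, 47.6 and 127 FPKM in WT I, WT II and WT III and at 84.7 FPKM in the library labelled atx1 II. LTI30, a dehydrin of cold and drought responses, was at 9.69, 27.75 and 81.4 FPKM and at 134 FPKM. Of 7 measured genes on the galactinol and raffinose list, 3 were 2-fold higher at the first step and 1 at the second. Of 28 measured genes for abscisic acid, cold and drought the counts were 8 and 3. In the library labelled atx1 II, 2 of the 7 and 7 of the 28 were 2-fold above WT II, with 1 and 4 below.

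FUT4, a fucosyltransferase of cell wall glycans, was at 0.07, 9.22 and 35.2 FPKM in WT I, WT II and WT III and at 43.8 FPKM in the library labelled atx1 II. RALF1, a signal peptide that restrains cell growth, was at 1.64, 11.05 and 35.9 FPKM and at 37.9 FPKM. Both lay within 2-fold of WT III in the library labelled atx1 II.

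Chloroplast-encoded genes were represented by the photosystem II genes PSBD, at 48.2, 120.5 and 312 FPKM in WT I, WT II and WT III and 385 FPKM in the library labelled atx1 II, and PSBC, at 31.1, 64.8 and 174 FPKM and 188 FPKM. These genes overlap on the chloroplast genome, so they may share reads. The 7 nuclear chlorenchyma markers had summed levels of 31826, 33778 and 13162 FPKM in WT I, WT II and WT III and 12511 FPKM in the library labelled atx1 II, a sum made up mostly of Rubisco small subunit genes. At the second wild-type step 4 of the 7 were 2-fold lower and none was higher. In the library labelled atx1 II, 4 were 2-fold below WT II and 2 above it, namely LHCB1.1 (24.95 FPKM in WT II and 815 there) and LHCB1.2 (53.4 and 360.1 FPKM). The sources used here do not state how RNA was selected for the libraries, and its part in the chloroplast values was not tested.

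Among genes named by family or phenotype, MLP28, of the major latex protein family, had the highest level of the set in every wild-type library, at 87.8, 265 and 1013 FPKM in WT I, WT II and WT III, with 1291 FPKM in the library labelled atx1 II. MLP28 was thus abundant in all 4 libraries. The serine carboxypeptidase-like gene scpl2 was at 0.16, 2.11 and 6.13 FPKM and at 47.4 FPKM. EDA5, named for embryo sac development arrest, was at 0.11, 6.75 and 16.6 FPKM and at 7.4 FPKM. The AAA-ATPase gene AATP1 was at 0.06, 2.15 and 5.65 FPKM in the wild type and at 1.81 FPKM in the library labelled atx1 II. MLP28 and scpl2 were thus above WT III in that library, EDA5 was within 2-fold of WT II, and AATP1 was a little below WT II, at a difference of -0.16.

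The 36 loci with no function name had median levels of 0.47, 4.64 and 13.9 FPKM in WT I, WT II and WT III and 23.3 FPKM in the library labelled atx1 II, where 25 were 2-fold above WT II, 3 below and 8 within. AT1G76960 was listed at 0 in WT I and was at 6.1, 57.1 and 100.4 FPKM in WT II, WT III and the library labelled atx1 II. AT2G38790 was at 0.09, 4.27 and 56.7 FPKM along the wild type and at 59.5 FPKM. It had the largest second-step gain of the set, 3.45 on the log2 scale. AT2G32870 was at 1.86, 19.6 and 40.85 FPKM in the wild type and at 250.3 FPKM in the library labelled atx1 II, the highest value of the 36 there.

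Far above the wild type in the library labelled atx1 II were also AT1G64360 (0.26, 2.27, 9.87 and 71.4 FPKM), AT4G38540 (0.62, 4.2, 12.4 and 95.4 FPKM) and AT2G36970 (0.19, 1.69, 4.68 and 38.0 FPKM), each in the order WT I, WT II, WT III, library labelled atx1 II. They exceeded WT II by 4.47, 4.21 and 3.86 on the log2 scale. At the other end, AT3G04540 was at 4.48 and 15.6 FPKM in WT II and WT III and was listed at 0 in WT I and in the library labelled atx1 II. AT5G47530 was at 0.11, 14.2 and 40.7 FPKM and then 6.07 FPKM, AT4G28380 at 3.65, 19.6 and 60.1 FPKM and then 9.14 FPKM, and AT3G03776 at 0.45, 1.9 and 6.3 FPKM and then 0.92 FPKM. The first 3 of these 4 loci were the only genes of the 97 that were 2-fold below WT II in the library labelled atx1 II on the scale of log2(FPKM + 1). AT3G03776 was at 0.484 of its FPKM in WT II, but its difference on that scale was -0.59.

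Over the whole set, 75 of the 97 genes (77.3%) were 2-fold or more higher in the library labelled atx1 II than in WT II, 3 (3.09%) were lower and 19 were within 2-fold. Over all measured genes the shares were 14.1% and 8.32%. The difference had a median of 1.7 on the log2 scale, with quartiles of 1.11 and 2.37 and a range of -2.45 to 6.69, and was above 0 in 89 genes. Over all measured genes its median was 0.28, and it was above 0 in 12123 of 18858. WT II also entered the choice of the genes, as the upper end of one step and the lower end of the other, so this contrast is not independent of the choice. With libraries scaled by the median of ratios, which brings the median of all measured genes to 0.03, 68 of the same 97 genes were 2-fold higher and 3 lower.

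**Figure D3:**
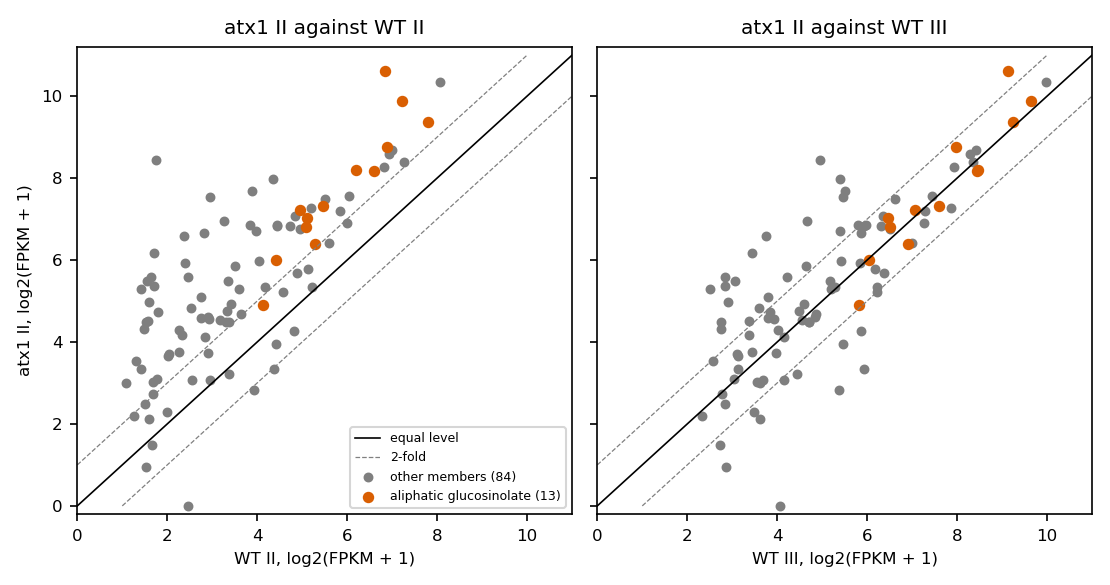
Level in the library labelled atx1 II against WT II (left) and WT III (right), as log2(FPKM + 1), 1 point per gene, with the 13 aliphatic glucosinolate genes in orange and the other 84 in grey. The solid line marks equal levels and the dashed lines 2-fold. Most points lie above the upper dashed line against WT II (75 genes at or above it) and between the dashed lines against WT III (63 genes).

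Against WT III, 63 genes (64.9%) were within 2-fold, 22 (22.7%) were 2-fold or more higher in the library labelled atx1 II and 12 (12.4%) were lower. Over all measured genes 81.4% were within 2-fold, 9.61% were higher and 9.03% were lower. The median difference was 0.25, with quartiles of -0.27 and 0.89, against 0.09 over all measured genes. WT III too had entered the choice. In 59 of the 97 genes the library labelled atx1 II had the highest of the 4 levels, in 30 it lay from WT II to WT III, and in 8 it lay from WT I to below WT II. Those 8 were AT4G28380, LBD15, 4CL2, AT5G47530, NAC061, AT3G04540, AT3G03776 and AATP1. For these genes the highest of the 4 levels means only a level above WT III, since WT III was the highest wild-type level by choice. Among all 18858 measured genes, 10510 lay above WT III in the library labelled atx1 II.

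Set on the scale of each gene's own gain from WT II to WT III, the library labelled atx1 II stood at a median of 1.15 of that gain, with quartiles of 0.79 and 1.75, where 0 is the level of WT II and 1 that of WT III. WT II enters both parts of this share, and the gain that divides it chose the genes. The share is thus not independent of the choice. Compared with WT I, 95 genes (97.9%) were 2-fold or more higher, against 19.8% over all measured genes. WT I entered the choice as the lowest of the 3 wild-type levels, so nothing is read from that contrast. The other 2, AT3G04540 and AT3G03776, were within 2-fold on the scale of log2(FPKM + 1), as were 62.6% of all measured genes.

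Genes that gained at one wild-type step alone gave other counts. Of the 1643 genes that gained from WT I to WT II only, 18.6% were 2-fold higher and 23.6% lower in the library labelled atx1 II than in WT II, with a median of 0.01. Of the 255 genes that gained from WT II to WT III only, 54.5% were higher and 6.67% lower, with a median of 1.12. Against WT III the medians were 0.0 for the first class, -0.12 for the second and 0.25 for the genes that gained at both steps. These classes share the same 4 libraries and differ in which of them chose the genes, so the difference between them was not tested.

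**Figure D4:**
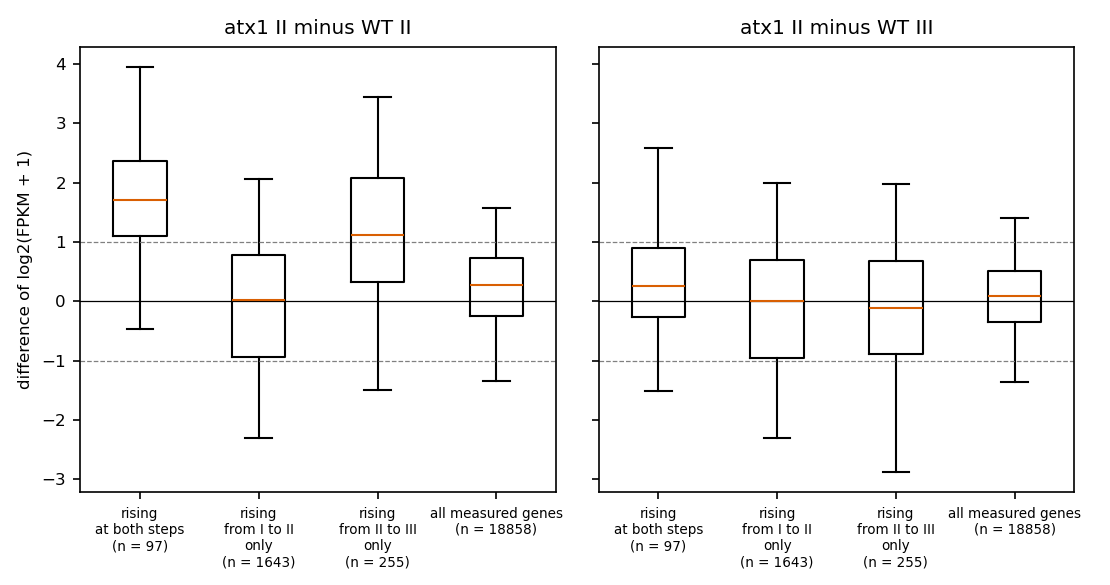
Difference in log2(FPKM + 1) between the library labelled atx1 II and WT II (left) or WT III (right) for the 97 genes that gained at both steps, the 1643 and 255 that gained at one, and all 18858 measured genes. Boxes give the quartiles with the median in orange and whiskers the 5th to 95th percentile over genes, and dashed lines mark 2-fold. The box of the 97 genes lies above 1 against WT II and around 0 against WT III.

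Other transcripts differed widely in the same library. Of 11 measured circadian clock genes, a list added later, 5 were 2-fold above WT II and 1 below, and the morning genes CCA1 and LHY were at 121 and 108 FPKM against 2.91 and 2.8 in WT II. Of 15 measured heat shock genes, 11 were 2-fold lower and 1 was higher. Markers of interfascicular fibres were 2-fold lower than WT II in 4 of 6, with summed levels of 444, 3470 and 4170 FPKM in WT I, WT II and WT III and 591 FPKM in the library labelled atx1 II. Xylem vessel markers were 2-fold lower in 7 of 8, with sums of 243, 1091, 1002 and 285 FPKM. Phloem markers were 2-fold higher in 2 of 8 and lower in none, with sums of 324, 1058, 685 and 1663 FPKM. Their median difference from WT II was 0.2, against 0.28 over all measured genes, of which 14.1% were 2-fold higher and 8.32% lower. Guard cell markers were 2-fold higher in 2 of 7 (median 0.32) and cambium markers in 1 of 6 (median -0.2), with none lower in either. None of the 97 genes is among these lists or markers. The phellem marker GPAT5 was at most 0.03 FPKM in every library. The part of the clock, heat, fibre and vessel differences, and of the phloem sums, in the levels of the 97 genes was not tested.

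The 24 gene lists drawn up for the stem, with earlier results known, held 393 measured genes, 9 of which (2.29%) were in the set, against 0.514% of all measured genes. The 9 came from 6 lists, and the other 18 lists had no gene in the set. Among the 18 were secondary wall regulators, with 33 measured genes, and secondary wall cellulose and xylan, with 24. In those lists 25 and 20 genes were 2-fold higher at the first step, and none at the second. The library labelled atx1 II was 2-fold below WT II in 18 and 23 of them.

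Position did not enter the choice. By their place in RefSeq, 26, 12, 23, 15 and 18 of the genes lay on chromosomes 1 to 5, that is 26.8%, 12.4%, 23.7%, 15.5% and 18.6% of the set, against 26.2%, 15.0%, 19.5%, 14.8% and 23.1% of measured genes. RefSeq placed 94 of the 97 genes, and the chloroplast genes PSBC and PSBD were among those without a chromosome. The percentages are of all 97 and all 18858 genes, placed or not. The set held 2 pairs of immediate neighbours, UMAMIT20 with UMAMIT17 and AT2G47120 with SDR3. Within 3 genes of each other lay 1 more pair, RALF1 and GSTF7. Both adjacent pairs are of similar genes, so their reads may be shared.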

How the data were processed

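Each RNA library came as a table of FPKM per gene, to 2 decimals, as deposited by the authors. Trimmomatic, HISAT, Bowtie2, RSEM and the build TAIR10 are named, without version or order, per the submitters' processing notes, and the sources used here do not state how reads shared by paralogs were divided. Gene names came from RefSeq TAIR10.1, which matched 23238 of 23615 IDs and 94 of the 97 genes, and gave gene order and, for the depth estimate below, gene spans. Tables were joined on gene ID and the deposited FPKM were compared by subtracting log2(FPKM + 1) values, which understates differences of low genes. The filter was 1 FPKM in at least 1 library and the threshold 1 (2-fold).

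FPKM sums were 684868 to 704606, and 16957 to 17411 genes reached 1 FPKM. Steps in the low values of genes of 250 to 900 bp put depth at about 18900000 to 20200000 fragments (70.7% to 72.2% of values within 0.15 of a whole fragment, against 30% if spread evenly, though the step was fitted to the same values). One FPKM on 1 kb is then about 19 to 20 fragments, so levels under 1 FPKM rest on few fragments. A 0 is given as listed at 0, with no fold.

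With 1 library per group no test was run. The genes and all lists were chosen with earlier results of these data known. The aliphatic glucosinolate and clock lists and the role groups were made after the members were seen. Genes named with values are the 12 highest in WT III, the 10 with the largest total gain, the 8 highest and 8 lowest in the library labelled atx1 II against WT II, those next to the thresholds, those on a list, and the 2 to 4 highest of each role. Other named genes were chosen after their values were seen. Alternatives were other pseudocounts, filters, scalings and a 1.5-fold threshold. The classification was also run on simulated data, but how often it misplaces genes in these unreplicated libraries was not tested. Python 3.11.15, pandas 2.3.3, numpy 2.4.6 and matplotlib 3.10.9 were used.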

Additional observations from a re-analysis of the deposited data

How the results depend on the processing

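Of 119 recomputed values, 105 stayed within 1.5 times the reported one and 14 moved further. Nearly all are counts or percentages, which cannot change sign, so the lack of reversals carries no information. Dropping the low filter, or applying it to the wild-type libraries alone, could not change the members. With a 1.5-fold threshold 452 genes gained at both steps, of which 11.9% were lower than WT II in the library labelled atx1 II, 27.4% lower than WT III and 1.11% lower than WT I, and 29.8% of the genes that gained from WT I to WT II only were higher than WT II. With a pseudocount of 0.1 there were 225 genes, of which 5.33% were lower than WT II, 0.444% lower than WT I and 35.1% higher than WT III. With a pseudocount of 5 there were 44 genes, of which 0.0% were lower than WT II, 11.4% higher and 4.55% lower than WT III, and 13.6% of the genes that gained from WT II to WT III only were lower than WT II. The causes were not tested. Median-of-ratios scaling gave 73 genes, 66 of them shared, and scaling every library to the same sum gave 129, all 97 included. In every setting 39 of the 97 genes were kept, among them 12 of the 13 aliphatic glucosinolate genes, GGP1 being the exception. Under those settings the share of genes higher than WT II in the library labelled atx1 II was 62.8% to 79.1%, the lowest being that at the 1.5-fold threshold. Shares over all measured genes were not computed for these settings. The percentages in this section therefore cannot be set against the all-gene shares given above for 2-fold. A filter on the wild-type libraries alone and scalings with the 97 genes held fixed were chosen after seeing the data. No paired analysis was possible because each group has 1 library. The count of promoter motifs was not run, since promoter sequences were not used here. With 1 library per group, biological and technical spread are unknown.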
